A study of Mus musculus with 2 samples.

Results

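The 10 genes described here carry the transcriptional signs of 2 cellular stress responses. They were chosen by name and not by a cut on their values, and they are 10 of the 31053 genes in the count matrices. Hspa5, Herpud1, Xbp1 and Sdf2l1 form the endoplasmic reticulum (ER) branch, and Atf4, Ddit3, Trib3, Asns, Chac1 and Sesn2 form the amino acid branch. They were measured by single-cell RNA sequencing in 2 libraries of mouse leukemia cells, 1 library a group. All 10 were measured in both libraries, with at least 97 UMIs each. A UMI (unique molecular identifier) marks 1 captured transcript.

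The cells came from fetal liver cells of Usp18-floxed UBCER-Cre mice that had been transduced with AML1-ETO9a (AE9a), a leukemia fusion gene, together with GFP, and transplanted into recipient mice. UBCER-Cre is a recombinase under the ubiquitin C promoter that acts once tamoxifen is given, and both groups carry it, as they carry AE9a, GFP and the floxed allele. Recipients were injected with oil or tamoxifen after they became sick, and splenocytes that were GFP+ Lin- c-Kit+, which means positive for the Kit receptor and negative for markers of mature lineages, were sorted 3 days after the first injection. A pool of 3 mice a group is stated for the heterozygous cells, and for homozygous cells the number of mice is not given in the sources used here. The methods give a single range of young adult ages and both sexes for all mice, and both library titles say batch 2. The genotype and treatment labels give Usp18f/f for the oil library and Usp18delta/delta for the tamoxifen library, whereas the protocol label gives Usp18+/f cells and a heterozygous depletion, so the groups are named by injection. Tamoxifen, the activated recombinase and the deletion go together in 1 library and cannot be told apart.

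When unfolded proteins gather in the ER, the sensor IRE1 splices the Xbp1 transcript, ATF6 is cut to release a transcription factor, and the kinase PERK phosphorylates the translation factor eIF2. Lack of amino acids reaches the same step through the kinase GCN2, heme shortage through HRI and double-stranded RNA through PKR, and the shared outcome, higher translation of the Atf4 transcript, is called the integrated stress response. The ER arm raises chaperones and degradation factors, while ATF4 raises genes for amino acid synthesis and transport and the factor Ddit3 (CHOP). Because Atf4 is controlled at translation and Xbp1 by splicing, counts of 3′ transcript ends give the amount of these transcripts but not their activation.

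The regulatory letters of the branches were looked up in the 250 bases before each RefSeq start (GRCm38.p6; all 10 genes matched). The searched motifs were the ER stress element ERSE (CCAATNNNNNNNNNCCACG), its variant ERSE-II (ATTGGNCCACG), the XBP1 element UPRE (TGACGTGG) and the CHOP-ATF4 element CARE (TGATGNAA), each on both strands. ERSE and ERSE-II share the letters CCACG, and no match of one motif overlapped a match of another in these genes. The promoters with a match follow, with the matching letters in capitals, since they show the 2 branches side by side.
Hspa5, chr2:34771840-34772089, plus strand: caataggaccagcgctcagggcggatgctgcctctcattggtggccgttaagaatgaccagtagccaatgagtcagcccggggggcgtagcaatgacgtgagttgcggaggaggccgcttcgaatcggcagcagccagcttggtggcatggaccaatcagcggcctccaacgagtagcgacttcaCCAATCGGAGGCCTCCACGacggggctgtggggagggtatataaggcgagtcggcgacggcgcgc
Herpud1, chr8:94386179-94386428, plus strand: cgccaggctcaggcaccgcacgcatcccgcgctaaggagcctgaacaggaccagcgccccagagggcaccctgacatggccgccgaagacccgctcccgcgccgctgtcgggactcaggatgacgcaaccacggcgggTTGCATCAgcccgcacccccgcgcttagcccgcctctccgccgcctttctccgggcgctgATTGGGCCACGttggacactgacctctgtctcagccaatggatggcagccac
Asns, chr6:7693210-7693459, minus strand: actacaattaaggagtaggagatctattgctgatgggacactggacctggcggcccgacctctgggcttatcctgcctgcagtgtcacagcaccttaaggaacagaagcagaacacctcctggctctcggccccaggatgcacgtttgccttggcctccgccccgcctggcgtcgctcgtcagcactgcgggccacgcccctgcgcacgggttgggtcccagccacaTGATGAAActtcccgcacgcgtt
Chac1, chr2:119350992-119351241, plus strand: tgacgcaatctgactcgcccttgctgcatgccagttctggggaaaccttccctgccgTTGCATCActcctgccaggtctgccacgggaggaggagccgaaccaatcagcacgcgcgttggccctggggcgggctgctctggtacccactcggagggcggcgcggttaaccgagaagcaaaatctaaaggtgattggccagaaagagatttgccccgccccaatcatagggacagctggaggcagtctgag
Hspa5 held an ERSE at bases -65 to -47, a motif found in 0.114% of 32536 promoters of the same length. Herpud1 held an ERSE-II at -52 to -42, found in 0.0307% of promoters, and also a CARE on the minus strand at -112 to -105. Asns held a CARE at -23 to -16 and Chac1 a CARE on the minus strand at -193 to -186, a motif found in 3.4% of promoters. No gene of the list held the UPRE, found in 0.569% of promoters, and the windows of Atf4, Ddit3, Trib3, Sesn2, Xbp1 and Sdf2l1 held none of the 4 motifs. So among the genes with a match the ER motifs lay in ER branch genes, and the CARE lay in genes of both branches. A match is a description of letters and was not tested as a site.

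Levels are given as CPM, the UMIs of a gene scaled to the total UMIs of its library, summed over the cells kept (6838 cells and 66045700 UMIs in the oil-labelled library, 6472 cells and 60661486 UMIs in the tamoxifen-labelled library). The 3′ protocol counts 1 tag a transcript, so levels are not divided by gene length. Differences are log2 ratios, tamoxifen over oil, with 95% intervals that cover counting error only. With 1 library a group there is no replicate check and no test, and each difference is one between these libraries. The libraries shared 14 barcodes. The targeted gene went against its label: Usp18 had 371 UMIs in the oil-labelled library and 933 in the tamoxifen-labelled library (log2 ratio 1.45), and 3′ counts do not show whether an upstream exon is lost.

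Of the ER branch, Hspa5, Herpud1 and Sdf2l1 were lower in the tamoxifen-labelled library and Xbp1 was slightly higher, a sign it did not keep when the phases of the cell cycle were weighted alike. Of the amino acid branch, Atf4, Trib3, Asns and Chac1 were lower, whereas Ddit3 and Sesn2 were higher. The amino acid branch therefore did not move as a block. In the ER branch Xbp1 alone lay above 0, by a small amount.

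Hspa5 (chromosome 2, 34771970 to 34777547) encodes BiP, the main chaperone of the ER lumen, and was the most abundant of the 10. It had 16866 UMIs or 255 CPM (252 to 259) in the oil-labelled library and 12998 UMIs or 214 CPM (211 to 218) in the tamoxifen-labelled library, a log2 ratio of -0.25 (-0.29 to -0.22). Sdf2l1 (chromosome 16, 17130138 to 17132383), a partner of BiP in the ER lumen, had 45 CPM (43.4 to 46.6) and 30.4 CPM (29.1 to 31.9). Its log2 ratio of -0.56 (-0.65 to -0.48) was the lowest of the ER branch, and 1.42% of all measured genes had a ratio as low. Herpud1 (chromosome 8, 94386438 to 94395377), a membrane protein of ER-associated degradation, had 63.4 CPM (61.4 to 65.3) and 56.6 CPM (54.7 to 58.5), a log2 ratio of -0.16 (-0.23 to -0.10). Xbp1 (chromosome 11, 5520659 to 5525893), the transcription factor that IRE1 activates, had 73.1 CPM (71 to 75.1) and 77.3 CPM (75.1 to 79.5). Its log2 ratio was 0.08 (0.02 to 0.14), the smallest difference of all 10 genes.

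Atf4 (chromosome 15, 80255184 to 80257541), the central transcription factor of the integrated stress response, had 11756 UMIs or 178 CPM (175 to 181) in the oil-labelled library and 8769 UMIs or 145 CPM (142 to 148) in the tamoxifen-labelled library. The log2 ratio was -0.30 (-0.34 to -0.26). Asns (chromosome 6, 7675169 to 7693254), asparagine synthetase and a classic ATF4 target, had 109 CPM (107 to 112) in one library and 88.8 CPM (86.4 to 91.2) in the other. Its log2 ratio was -0.30 (-0.35 to -0.25), which the intervals do not separate from that of Atf4. The lowest ratios of the amino acid branch were those of Trib3 and Chac1, both scarce. Sesn2, about as scarce as Trib3 in the oil-labelled library (8.54 CPM), had the highest ratio of the branch (0.63). Trib3 (chromosome 2, 152337422 to 152344032), a pseudokinase that restrains ATF4 and CHOP, had 562 UMIs or 8.51 CPM and 311 UMIs or 5.13 CPM, a log2 ratio of -0.73 (-0.94 to -0.53). Chac1 (chromosome 2, 119351229 to 119354381), an enzyme that degrades glutathione, had 184 UMIs or 2.79 CPM and 97 UMIs or 1.6 CPM, a log2 ratio of -0.80 (-1.17 to -0.44). These intervals overlap, so the order of the pair is not set by the counts.

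Ddit3 and Sesn2 went the other way. Ddit3 (chromosome 10, 127290774 to 127296288), the CHOP factor of prolonged stress, had 5094 UMIs or 77.1 CPM (75 to 79.3) in the oil-labelled library and 5312 UMIs or 87.6 CPM (85.2 to 90) in the tamoxifen-labelled library, a log2 ratio of 0.18 (0.13 to 0.24). Sesn2 (chromosome 4, 132492032 to 132510501), a leucine-binding protein that holds back mTORC1, had 564 UMIs or 8.54 CPM (7.85 to 9.27) and 804 UMIs or 13.3 CPM (12.4 to 14.2). Its log2 ratio was 0.63 (0.48 to 0.79), and 98.3% of measured genes had a ratio at or below it. Sesn2 and Trib3 had nearly the same level in the oil-labelled library and differed by a factor of more than 2 in the tamoxifen-labelled library.

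**Figure D1:**
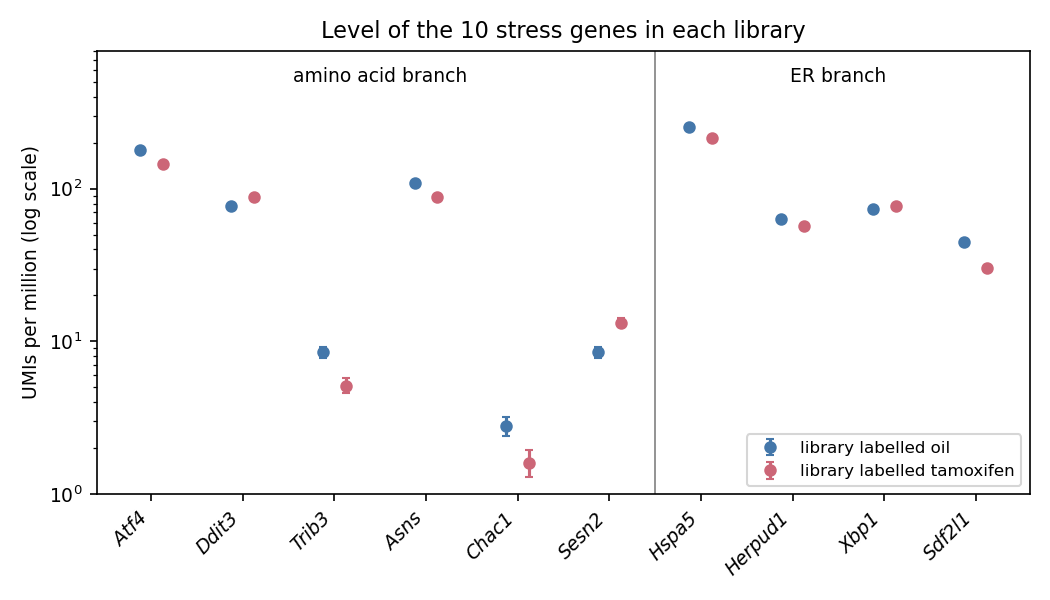
Level of each stress gene, in CPM on a log axis, in the oil-labelled library (blue) and the tamoxifen-labelled library (red); bars are 95% Poisson intervals, smaller than most points. Hspa5 stood highest at 255 and 214 CPM and Chac1 lowest at 2.79 and 1.6 CPM, and the red point lies above the blue one in Ddit3, Sesn2 and Xbp1 alone.

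Against a threshold of 1.2-fold, 1 of the 10 genes (Sesn2) was higher and 5 were lower (Atf4, Trib3, Asns and Chac1 of the amino acid branch and Sdf2l1 of the ER branch), where 9.08% of 10527 measured genes were higher by that much and 16.9% lower. That split depends on the scaling: 956 genes were higher and 1775 lower, against 1410 and 1076 with TMM and 1393 and 1093 with median-ratio scaling. So do the calls of Atf4 and Asns, which had -0.23 and -0.24 with TMM, -0.24 each with median-ratio scaling, -0.22 each with totals that left out mitochondrial and ribosomal protein genes, and -0.26 and -0.13 with phases at the same weights, all short of 1.2-fold. Trib3, Chac1 and Sdf2l1 were the 3 genes lower by that much under each of these settings, and Ddit3 (0.26) passed as higher with those totals. Hspa5, at -0.25 just short of 1.2-fold, passed as lower under some other alternatives. It did so without the 6% of cells with the most UMIs (-0.29) and in cells of at least 3000 UMIs (-0.26). It also did with classes of the mast cell program (-0.28) or globin program (-0.26) at the same weights in both libraries. At 1.5-fold, Sesn2 was higher and Trib3 and Chac1 were lower, beside 2.09% and 1.27% of all genes. The median over all measured genes was -0.06 on the log2 scale, the median of the 6 amino acid members -0.30 and that of the 4 ER members -0.21. Summed over their members, the amino acid branch had 384 CPM and 341 CPM, a log2 ratio of -0.17 (-0.20 to -0.15), and the ER branch had 437 CPM and 379 CPM, a log2 ratio of -0.21 (-0.23 to -0.18). The ER to amino acid ratio of UMIs was thus 1.14 in the oil-labelled library and 1.11 in the tamoxifen-labelled library. These sums rest on their most abundant gene: Hspa5 made up 58.5% and 56.6% of the ER branch, and Atf4 46.3% and 42.4% of the amino acid branch. Without Hspa5 the ER sum had a log2 ratio of -0.14, and without Atf4 the amino acid sum had one of -0.07. The latter was 0.01 when totals left out mitochondrial and ribosomal protein genes, and also 0.01 when the phases were given the same weights in both libraries. With TMM scaling the full sums had -0.11 and -0.14. Under a filter of 1000 genes and 5% mitochondrial UMIs, which keeps 673 and 771 cells, Sesn2 had 0.97, Trib3 -0.44 and Chac1 -1.23.

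Other genes of these pathways were taken from lists. Of 89 listed genes 79 were measured, and 67 of these lay below 0, with a median log2 ratio of -0.20, where 61.7% of all measured genes lay below 0. At least 1.2-fold lower were 28 and higher 3, to be read against the 16.9% and 9.08% of all genes. The ER side was shifted by a small amount. Of 15 measured ER chaperones and folding genes, 14 lay below 0 with a median of -0.21, and 4 were at least 1.2-fold lower (beside 61.7% and 16.9% of all genes), Sil1 (a nucleotide exchange factor for BiP, -0.35) and Pdia6 (a disulfide isomerase, -0.31) being lowest and Dnajc3 (-0.08) and Dnajb9 (0.03), both DnaJ co-chaperones, highest. The 15 ER-associated degradation and translocon genes had a median of -0.11, with none 1.2-fold lower. There Os9 (-0.22) and Derl1 (-0.19), which act in degradation, were lowest, and the translocon subunits Sec61b (0.18) and Sec61g (0.59) were highest.

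The amino acid side showed its largest shift in synthesis and tRNA charging. Of 10 measured genes for serine, one-carbon and amino acid synthesis, all 10 lay below 0 with a median of -0.42, and 6 were at least 1.2-fold lower, again beside 61.7% and 16.9% of all genes. Cth (cystathionine gamma-lyase, 5.51 and 3.58 CPM, log2 ratio -0.62) and Phgdh (the first enzyme of serine synthesis, 121 and 81.7 CPM, -0.56) were lowest, and Pck2 (-0.12) and Pycr1 (-0.03, interval -0.29 to 0.23) highest. All 15 cytosolic aminoacyl-tRNA synthetases lay below 0 and 10 were at least 1.2-fold lower, beside 61.7% and 16.9% of all genes. Their median was -0.35, and they ranged from Mars (-0.56) and Gars (-0.45) to Wars (-0.20) and Nars (-0.11). Of 7 amino acid transporters 3 were 1.2-fold lower (median -0.10, beside 16.9% of all genes), among them Slc1a4 (-0.51) and Slc7a1 (-0.41), while Slc3a2 (-0.08) and Slc6a9, a glycine transporter (0.20), were highest.

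Among the 9 sensors, kinases and phosphatases the median was -0.04. Ppp1r15a (GADD34, which recruits the phosphatase that reverses eIF2 phosphorylation, 58.6 and 42.3 CPM, log2 ratio -0.47) and Eif2s1 (the phosphorylated subunit of eIF2 itself, -0.41) were lowest. Eif2ak1 (HRI, the heme-regulated kinase, 47.9 and 60 CPM, 0.32) and Ern1 (IRE1, 0.19) were highest. Of 8 measured bZIP partners and feedback factors 3 were 1.2-fold lower and 1 higher, beside 16.9% and 9.08% of all genes. Nupr1 (-0.51) and Atf5 (-0.40) were lowest, and Nfe2l2 (NRF2, 0.25) and Ddit4 (REDD1, like Sesn2 a brake on mTORC1) were highest. Ddit4 had 21.3 CPM in the oil-labelled library and 38.9 CPM in the tamoxifen-labelled library, a log2 ratio of 0.87 (0.77 to 0.96).

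**Figure D2:**
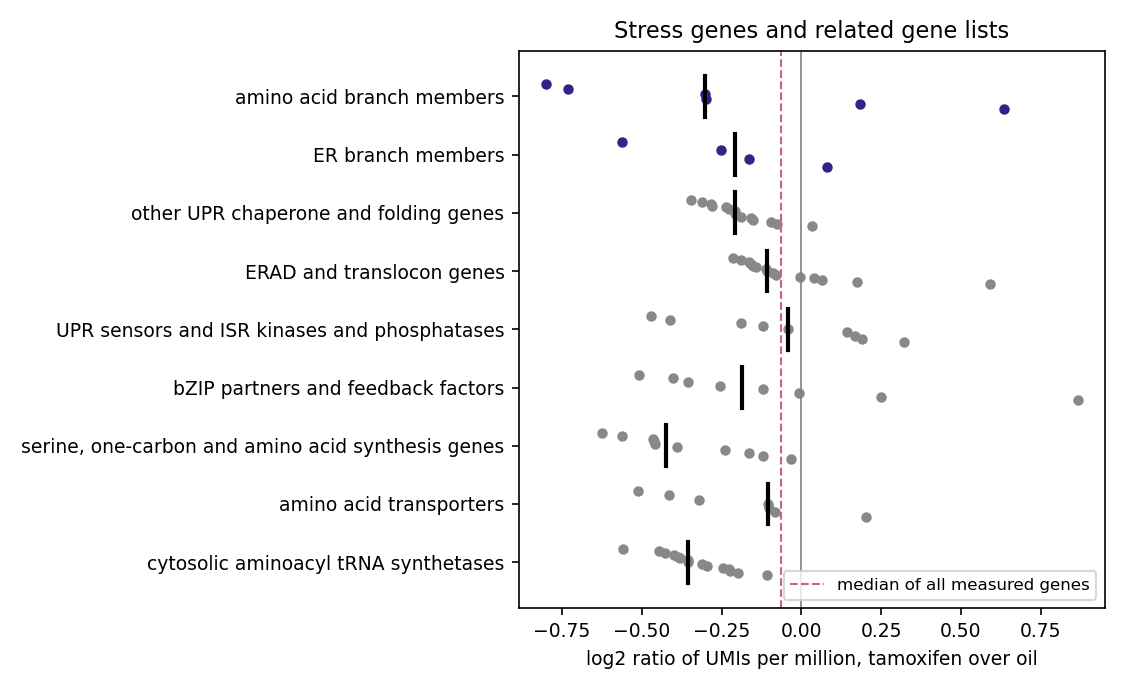
Log2 ratio of CPM, tamoxifen over oil, of the members of both branches (dark points) and of each measured gene in the 7 related lists (grey points); black bars are list medians and the dashed line is the median of all 10527 measured genes. The medians of the synthesis genes (-0.42) and tRNA synthetases (-0.35) lie farthest to the left of that line (-0.06). Amino acid members lie on both sides of 0, and of the ER members Xbp1 alone lies above it (0.08).

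Levels of other cell types and programs were measured alongside. Of 7 plasma cell markers, cells known for a large ER, 17 UMIs in all were counted in each library and Sdc1 was at 0. Of the markers of mature lineages, Cd4, Cd8a, Ly6g and Klrb1c were at 0 in both libraries. Kit had 171 and 232 CPM. Immediate early genes were lower in the tamoxifen-labelled library in 10 of 10 cases (sum 1283 and 779.7 CPM, log2 ratio -0.72, with Fos at -1.22 and Jun at -1.06). Mast cell genes were lower in 10 of 10 (1283 and 1004 CPM, -0.35), and interferon-stimulated genes were higher in 9 of 10 (180.2 and 362 CPM, 1.01). Of all measured genes 61.7% lay below 0. Some of the genes counted had few UMIs: Atf3 24 and 9, Tpsb2 32 and 3, and Gzmb 7 and 0. Prss34 had 57 and 42, with an interval that spanned 0. Ifit3, the interferon-stimulated gene that was not higher, had 17 and 14. Globin genes had 6046 and 7659.8 CPM (0.34; 3 of 6 above 0). Their part in the differences between the libraries was not tested, but each member's difference was also taken with the 4 classes of the mast cell, globin or immediate early program at the same weights in both libraries. No sign changed in any of these 3 weightings. Movements beyond counting error came with the immediate early program alone, under which Atf4 had -0.25, Ddit3 0.31, Asns -0.41, Sdf2l1 -0.70 and Herpud1 -0.07.

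To compare cells at 1 depth, each cell was thinned to 3000 UMIs, which kept 6330 cells of the oil-labelled library and 6127 of the tamoxifen-labelled library and left out 508 and 345 shallower cells. Hspa5 was seen in 48.8% (47.6 to 50) of thinned cells in the oil-labelled library and in 41.9% (40.7 to 43.2) in the tamoxifen-labelled library, and in 75.7% and 70.9% of cells before thinning. Atf4 was seen in 38% (36.8 to 39.2) and 32.8% (31.6 to 34), and in 67.3% and 60.7% before thinning. Sdf2l1 went from 10.6% (9.88 to 11.4) to 6.66% (6.05 to 7.31) of thinned cells, and Sesn2 from 2.53% (2.16 to 2.94) to 3.84% (3.37 to 4.35). Shares of Xbp1, 20.3% and 19.7%, had overlapping intervals, and for Chac1, at 43 and 24 cells, they were 0.679% (0.492 to 0.914) and 0.392% (0.251 to 0.582). The sort holds 1 population and no cell type that should lack these genes, so the share that free RNA gives was not available; at 3000 UMIs most cells hold 0 or 1 UMI of any member.

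Across cells the branches were weakly linked. A thinned cell held on average 1.32 UMIs of the ER branch and 1.09 of the amino acid branch in the oil-labelled library, and 1.1 and 0.996 in the tamoxifen-labelled library. The Pearson correlation of their log2(1 + UMI) values was 0.06 in each library, over 6330 and 6127 cells that share library and depth, and without Hspa5 and Atf4 it was 0.04 and 0.02. In sparse counts a value of this size is no finding. Of the 45 pairs of members none exceeded 0.1 in either library. The median was 0.05 and 0.02 over 15 pairs within the amino acid branch, 0.03 and 0.02 over 6 pairs within the ER branch, and 0.01 in both libraries over 24 pairs between branches.

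Grouping cells by the UMIs of one branch gave the size of the link in plain counts. Over thinned cells, the variance of the ER and amino acid sums was 1.35 and 1.42 times their mean in the oil-labelled library. In the tamoxifen-labelled library it was 1.32 and 1.36 times the mean. The Poisson intervals below take variance and mean as equal, so they may be too narrow. In the oil-labelled library, the 1983 cells with 0 ER branch UMIs held 0.983 amino acid branch UMIs each (0.94 to 1.03), and the 148 cells with 5 or more held 1.32 (1.15 to 1.52). In the tamoxifen-labelled library the values were 0.933 (0.894 to 0.973) in 2305 cells and 1.28 (1.05 to 1.54) in 87 cells. Seen from the other side, cells with 0 amino acid branch UMIs held 1.24 and 1.03 ER branch UMIs, and cells with 5 or more held 1.86 (1.61 to 2.14) and 1.75 (1.46 to 2.08). Among single genes, Atf4 was seen in 36.3% (34.6 to 38) of cells with 0 Hspa5 UMIs and in 41.5% (36.5 to 46.6) of those with 3 or more in the oil-labelled library, and in 31.6% (30.1 to 33.2) and 40.9% (34.7 to 47.4) in the tamoxifen-labelled library. For Ddit3 the same shares were 21% and 21.1%, and 22.3% and 25.2%, with overlapping intervals.

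**Figure D3:**
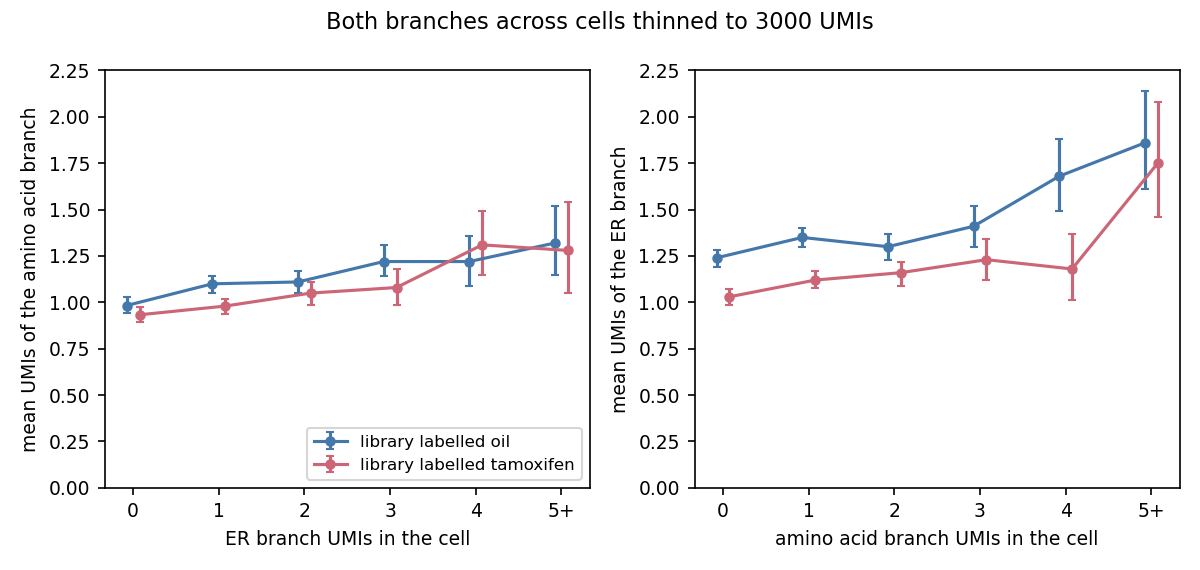
Mean UMIs of the amino acid branch by the ER branch UMIs of the cell (left) and the reverse (right), in cells thinned to 3000 UMIs. Bars are 95% Poisson intervals, which leave out spread between cells beyond counting error, and 5+ is 5 or more UMIs. Cells with 5 or more ER branch UMIs held 1.32 (oil) and 1.28 (tamoxifen) amino acid branch UMIs, against 0.983 and 0.933 in cells with none.

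The leading genes, whose pattern over thinned cells was most like that of each branch, differed between the branches except for Lmna. Lmna was among the leading genes both for Atf4 and for the sum of the other ER members. Likeness was the lower of the 2 libraries' Pearson correlations over 6097 to 6099 genes seen in at least 5% of thinned cells, whose 99th percentile lay between 0.04 and 0.07. For Hspa5 the leading genes were Calr (0.09 in both libraries), Hsp90b1, Ncl, Ran, Manf and Ccnb2, of which Calr, Hsp90b1 and Manf encode ER lumen proteins, Ncl and Ran act in the nucleus and Ccnb2 is a mitotic cyclin. For the sum of the 3 other ER members they were Lgals3 (0.10 and 0.11), Klf2, Lmna, Ahnak, Emp3 and Vim. For Atf4 they were Lmna (0.11 and 0.10), Tubb4b, Hba-a1, Eif2s2, Klf6 and Hba-a2. For the sum of the 5 other amino acid members they were Prdx2 (0.14 in both libraries), Car2, Hba-a1, Hbb-bs, Hba-a2 and Ybx3, where Hba-a1, Hba-a2 and Hbb-bs encode globins and Prdx2 and Car2 are abundant in red cells. All these correlations are weak and are given as a description.

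Much larger differences lay between phases of the cell cycle, and they cut across both branches. Phase was called from 43 S and 54 G2/M genes, none of them a member. G1 held 40.9% of thinned cells in the oil-labelled library and 54.3% in the tamoxifen-labelled library, S 17.4% and 11.7%, and G2/M 41.8% and 33.9%. These are ranges of a score, and 2182 cells lay within 0.05 of the boundary of G1. Median UMIs before thinning were 5926 and 6415 in G1 and 12600.0 and 13208 in S. Levels by class use all UMIs of the cells that could be thinned. Asns, Trib3, Chac1 and Sdf2l1 were higher in S and G2/M than in G1 in both libraries. Ddit3, Sesn2, Xbp1 and Herpud1 were lower there, again in both libraries. Of all genes tested, 28.5% and 29% were at least 1.2-fold higher in S than in G1, and 43.5% and 41.7% were lower. In G2/M over G1, 28.2% and 26.7% were higher by that much, and 42% and 39.2% were lower. Phase differences in both directions were thus common among genes at large.

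Asns had 50.4 CPM in G1 and 132 CPM in S in the oil-labelled library, and 51.3 and 126 CPM in the tamoxifen-labelled library, log2 ratios of S over G1 of 1.38 and 1.30 (1.18 to 1.41). Sdf2l1 followed it from the other branch, with 25.4 and 60.4 CPM, then 16.9 and 51.1 CPM, ratios of 1.25 (1.08 to 1.42) and 1.59. Hspa5 was higher in S by only 0.19 and 0.36. Ddit3 went the opposite way, from 91.6 to 57.6 CPM and from 98.7 to 64 CPM, ratios of -0.67 (-0.79 to -0.54) and -0.63 (-0.76 to -0.50). Xbp1 went with it, from 92 to 58.7 CPM and from 85.2 to 66.6 CPM, ratios of -0.65 (-0.77 to -0.52) and -0.36 (-0.49 to -0.23). Atf4 did not separate S from G1 (0.04 and 0.03, both intervals spanning 0) and was higher in G2/M (0.47 and 0.42). So the ATF4 targets Asns and Trib3 differed from Ddit3 and Sesn2 in the sign of their phase difference, as Sdf2l1 did from Xbp1.

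The related lists divided in the same manner. All 15 tRNA synthetases were at least 1.2-fold higher in S than in G1 in each library (medians 0.73 and 0.81), where 28.5% and 29% of all genes tested were, and all 15 were so in G2/M (medians 0.81 and 0.80), beside 28.2% and 26.7%. Of the synthesis genes 8 of 9 and 7 of 8 were 1.2-fold higher in S, with medians of 1.36 and 1.32. Of the 15 chaperones 10 were 1.2-fold higher and 2 lower in each library (medians 0.45 and 0.46), beside 43.5% and 41.7% of all genes lower. In G2/M 11 and 10 were higher and 2 lower in each library, beside 42% and 39.2% of all genes lower. In S over G1, degradation and translocon genes had medians of -0.24 and -0.14 and sensors and kinases of -0.33 and -0.35, near or below those of all genes (-0.15 and -0.12). In G2/M over G1, degradation and translocon genes had -0.07 and 0.03, above the -0.13 and -0.11 of all genes. Sensors and kinases had -0.32 and -0.36 there, below them.

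**Figure D4:**
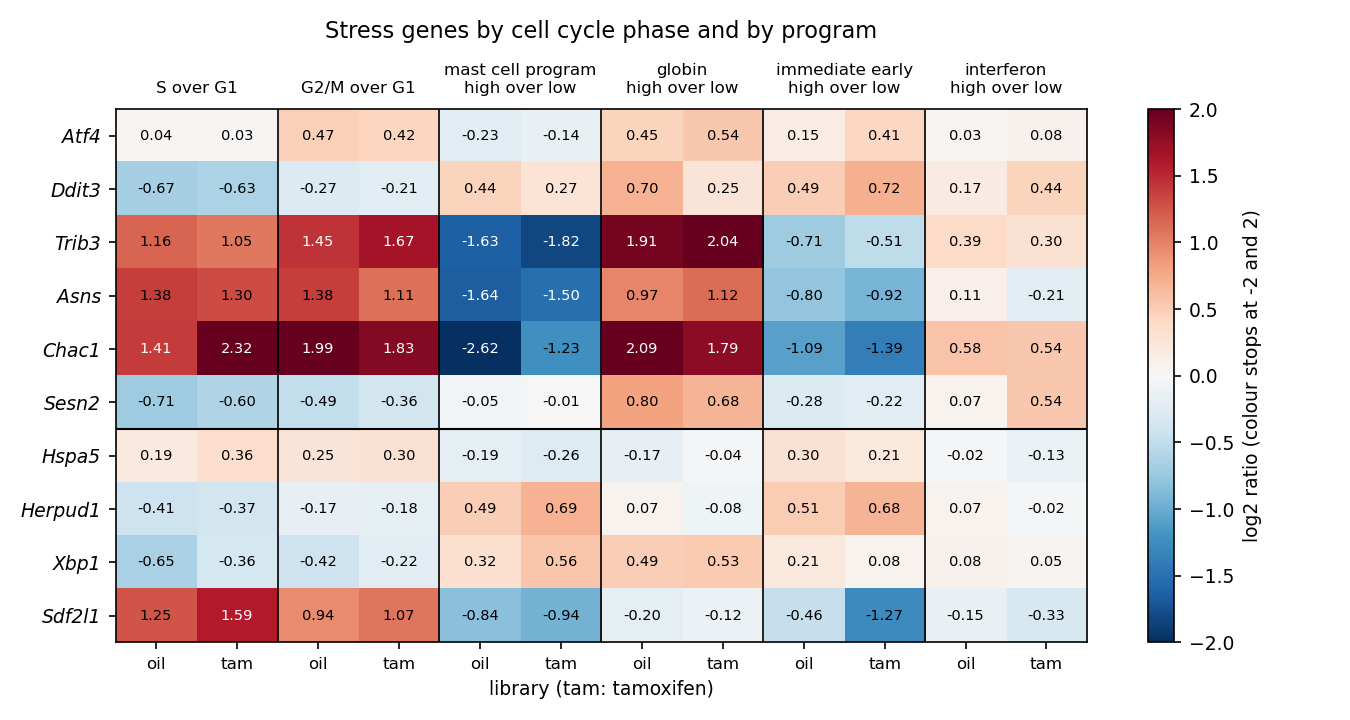
Log2 ratio of CPM between classes of cells inside each library, for the 10 genes (rows; the line separates the amino acid branch from the ER branch) in S and G2/M over G1 and in the highest over the lowest class of 4 programs. Trib3, Asns, Chac1 and Sdf2l1 share a sign in both phase contrasts and in the mast cell contrast, while Ddit3, Herpud1 and Xbp1 take the other sign there.

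Because the phases took different shares of the 2 libraries, the difference between libraries was also taken inside each phase. Atf4 was lower in the tamoxifen-labelled library in G1 (-0.23), S (-0.24) and G2/M (-0.28), and Hspa5 likewise (-0.28, -0.12 and -0.23), all 6 intervals lying below 0. Sesn2 was at least 1.2-fold higher in each phase (0.50, 0.60 and 0.62), where 6.15%, 5.84% and 7.51% of all genes tested were, while Ddit3 had 0.11, 0.15 and 0.16, with an interval in S that spanned 0. Sdf2l1 was lower in each (-0.58, -0.24 and -0.46), and so was Trib3 (-0.70, -0.82 and -0.48). Asns depended on phase: its log2 ratio was 0.03 (-0.10 to 0.15) in G1, -0.06 in S with an interval spanning 0, and -0.24 in G2/M, against -0.30 over all cells. With phases given the same weights in both libraries Asns had -0.13, compared with -0.30 without weighting. Xbp1 changed sign, with -0.11 (-0.21 to -0.02) in G1 and 0.18 in S, and it had -0.01 with phases at the same weights. Chac1 had only 16 and 14 UMIs in G1, and its interval spanned 0 there and in S.

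Inside G1, 6 of 15 tRNA synthetases were at least 1.2-fold lower in the tamoxifen-labelled library, beside 18.1% of all genes tested, with a median of -0.26 against -0.09 for all genes. In S, 0 of 15 were (median -0.16, beside 12% of all genes), and in G2/M 7 of 15 (median -0.26, beside 14.4%). The synthesis genes had medians of -0.14 over 8 genes in G1, -0.10 in S and -0.33 in G2/M, compared with -0.42 over all cells. The chaperones had -0.12, -0.09 and -0.18, where the medians over all genes were -0.09, -0.07 and -0.07. At least 1.2-fold lower were 1, 1 and 4 of the 15, beside 18.1%, 12% and 14.4% of all genes. In G1 and S the chaperone medians thus lay near those of all genes.

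**Figure D5:**
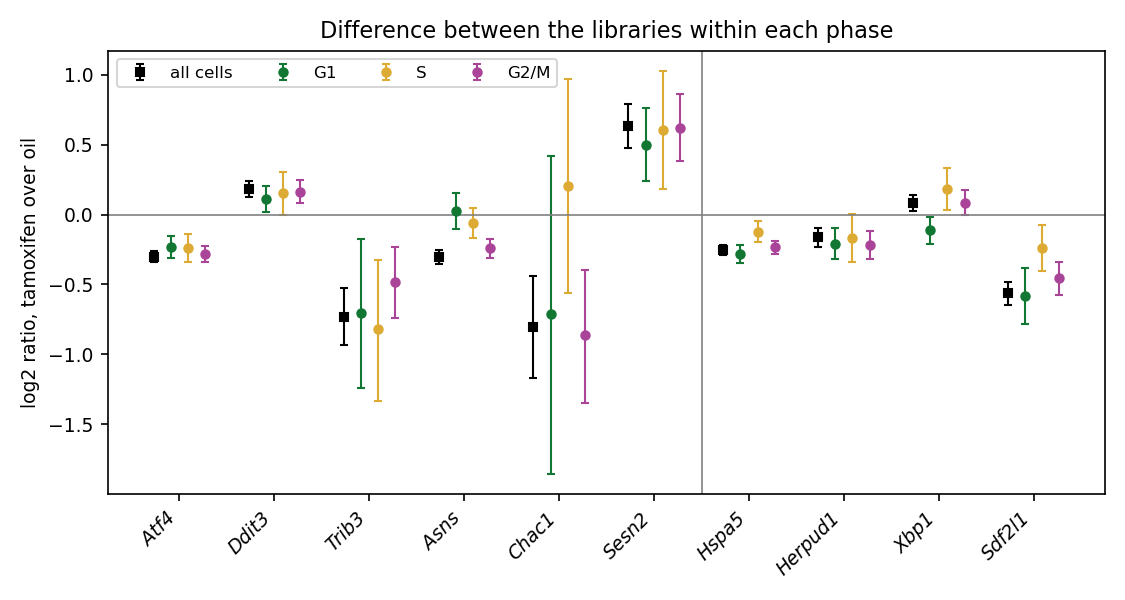
Log2 ratio of CPM, tamoxifen over oil, of each gene over all kept cells (black squares) and within G1, S and G2/M cells (coloured points); bars are 95% counting intervals. Sesn2 lies above 0 and Atf4, Hspa5, Trib3 and Sdf2l1 below it in every class, Asns is at 0.03 in G1 and -0.24 in G2/M, and Xbp1 is at -0.11 in G1 and 0.18 in S.

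The genes also differed between cells that were high and low in other programs. The share of all genes that differed was counted for the globin program alone. For the mast cell, immediate early and interferon programs, the differences of members therefore cannot be set against genes at large. Cells with more than 4 UMIs of 10 mast cell genes had less Asns than cells with none, 44.9 against 140.0 CPM in the oil-labelled library and 39.1 against 111 CPM in the tamoxifen-labelled library (a log2 ratio of -1.64 in the former, and an interval of -1.67 to -1.34 in the latter). They had more Herpud1, 83.4 against 59.2 CPM and 81.2 against 50.3 CPM (0.49 and 0.69). G1 cells made up 77.3% and 85.3% of the mast-high cells and 18.9% and 37.4% of the others. Among G1 cells alone the ratios were -1.09 and -1.11 for Asns and 0.76 and 0.89 for Herpud1, while Sdf2l1, at -0.84 and -0.94 over all phases, had -0.44 and -0.15 (interval -0.51 to 0.20).

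Cells with more than 18 UMIs of 6 globin genes were set against cells with at most 1. They had more Trib3 (13.8 against 3.66 CPM in the oil-labelled library and 8.83 against 2.14 CPM in the tamoxifen-labelled library), with log2 ratios of 1.91 and 2.04 (1.52 to 2.59). Chac1 (2.09 and 1.79), Asns (0.97 and 1.12), Sesn2 (0.80 and 0.68), Ddit3 (0.70 and 0.25) and Atf4 (0.45 and 0.54) were also higher, so all 6 amino acid members lay above 0 in both libraries, where 41.4% of all genes tested did in the oil-labelled library and 40.3% in the tamoxifen-labelled library. The ER branch was mixed: Hspa5 had -0.17 and -0.04, Herpud1 0.07 and -0.08 and Sdf2l1 -0.20 and -0.12, and Xbp1 alone was higher (0.49 and 0.53). Summed, the amino acid branch had 302 CPM in globin-low and 489 CPM in globin-high cells of the oil-labelled library, and 279 and 434 CPM in the tamoxifen-labelled library, whereas the ER branch had 428 and 422 CPM, and 364 and 383 CPM. Shares of G1 were closer here, 41% and 48.8% in the oil-labelled library and 60.9% and 56.3% in the tamoxifen-labelled library. In G1 cells alone Asns had 1.28 and 1.49 and Hspa5 0.05 and -0.05. Trib3 had 2.91 (1.66 to 4.44) and 2.09 (1.11 to 3.17) there, wide intervals from only 66 and 58 UMIs in all G1 cells. Sdf2l1 turned to 0.47 and 0.75 in G1 cells.

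In cells with more than 5 UMIs of 10 immediate early genes, against cells with at most 1, Herpud1 (0.51 and 0.68), Ddit3 (0.49 and 0.72), Hspa5 (0.30 and 0.21) and Atf4 (0.15 and 0.41) were higher and Asns (-0.80 and -0.92) and Sdf2l1 (-0.46 and -1.27) lower. Trib3 had -0.71 and -0.51 and Chac1 -1.09 and -1.39, with intervals that spanned 0 in the tamoxifen-labelled library. Such cells made up 28.6% of the oil-labelled library and 14.5% of the tamoxifen-labelled library. G1 cells made up 62.5% and 81.7% of them, and 26.5% and 41.4% of the cells with at most 1 UMI. Inside G1, Hspa5 (0.62 and 0.51) and Atf4 (0.57 and 0.72) were higher and Asns lower (-0.51 and -0.60) in both libraries. Trib3 had 0.33 and 0.34 in G1 cells and Chac1 -1.03 and 0.15, with intervals that all spanned 0. Sdf2l1 had -0.33, with an interval that spanned 0, and -0.97. With the interferon program, Trib3 had 0.39 and 0.30 over all phases, both intervals spanning 0, and 1.22 (0.26 to 2.11) and 1.56 (0.59 to 2.58) in G1 cells alone. In the tamoxifen-labelled library, cells with more than 1 UMI had more Sesn2 (17.1 against 11.8 CPM, 0.54, interval 0.29 to 0.79) and Ddit3 (108 against 79.6 CPM, 0.44) than cells with none, where the oil-labelled library had 0.07 (-0.37 to 0.48) and 0.17 (0.03 to 0.30). Atf4 had 0.03 and 0.08 and Hspa5 -0.02 and -0.13. In the tamoxifen-labelled library G1 cells made up 63.4% of the interferon-high cells and 49.9% of those with none. Among G1 cells alone Sesn2 had 0.35 there, with an interval of -0.0092 to 0.70 that spanned 0, and Ddit3 had 0.37 (0.23 to 0.51). The oil-labelled library had 0.10 and 0.05 in G1, both intervals spanning 0. Whether these contrasts differ between the libraries was not tested.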

How the data were processed

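UMI counts for every gene in every barcode were deposited. The authors made them by mapping 10x 3′ V3 reads to mm10 with Cell Ranger 3.0.2, with no normalization. Seurat, named in the submitters' processing notes, was not used here. Barcodes were kept from 500 detected genes up and to 10% mitochondrial UMIs (6838 of 7774 and 6472 of 7311, median 8622 and 8209.5 UMIs). No doublets were removed. Cell calling by the authors sets which barcodes are present, and intervals cover counting error only.

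Counts were summed per library, and a gene was taken as measured from 100 UMIs over both libraries up (10527 genes). CPM have exact Poisson intervals, log2 ratios exact conditional binomial intervals and shares Clopper-Pearson intervals, all at 95%. Correlations used log2(1 + UMI) in cells thinned to 3000 UMIs by 1 seeded draw. Phases were scored with scanpy on thinned cells, and programs were cut at quartiles of summed thinned UMIs over both libraries, which ties make unequal. With 1 library a group no test was run.

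The members and lists were chosen with earlier results of these data known. Named genes are the members, the 2 highest and 2 lowest ratios of each list, and the 6 genes most like each pattern; Usp18, Fos, Jun and cell markers were named as context. The result for 1 lineage marker, and the sum that holds it, is not reported here. The ratio and thinning steps were tested on simulated counts. As alternatives, the cell filter, the library total, the weights of cells, the count minimum and the depth were varied, and TMM factors (edgeR) and median-ratio size factors (DESeq2) were applied, for scaling only. Positions are from GENCODE on GRCm38, where 30934 of 31053 identifiers were found, and promoters from RefSeq (GRCm38.p6). Versions were scanpy 1.11.5, scipy 1.17.1, numpy 2.4.6, pandas 2.3.3 and matplotlib 3.10.9 under Python 3.11.15, and DESeq2 1.42.0 and edgeR 4.0.16 under R 4.3.3.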

Additional observations from a re-analysis of the deposited data

Results flagged for a closer look

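In the 936 and 839 barcodes that the cell filter left out, Ddit3 had 336 UMIs in the oil-labelled library and 426 in the tamoxifen-labelled library, a log2 ratio of 0.28 (0.07 to 0.49), against 0.18 in the cells kept. In the same barcodes Xbp1 had -0.29 (-0.52 to -0.06), against 0.08 in the cells kept, and Sesn2 had 0.12 (-0.54 to 0.78), against 0.63. The comparisons of the report leave these barcodes out, apart from the alternatives with all barcodes and with a limit of 20% mitochondrial UMIs. Xbp1 took opposite signs between phases, with a log2 ratio of -0.11 in G1 cells and 0.18 in S cells, each with an interval that excludes 0. The amino acid branch without Atf4 did so as well, with 0.09 in G1 cells and -0.07 in G2/M cells. The difference between phases was not tested in either case, since each group is 1 library.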

How the results depend on the processing

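No paired analysis was possible because only 1 library exists per group. Of 140 member ratios over 14 alternatives, 30 moved beyond counting error, 108 did not, and 2 changed sign, both of Xbp1: -5.6e-06 with a filter of 1000 genes and 5% mitochondrial UMIs (673 and 771 cells), and -0.0096 with phases at the same weights. The cause was not tested. The summed amino acid branch without Atf4 changed sign to 0.0087 with totals that left out mitochondrial and ribosomal protein genes, and to 0.0068 with phases at the same weights. The median and the sum of the amino acid branch moved to -0.24 and -0.11 with TMM, -0.24 and -0.11 with median-ratio scaling, -0.22 and -0.093 with those totals and -0.19 and -0.11 with phases at the same weights, and its median to -0.35 without the 6% of cells with the most UMIs. The median and sum of the ER branch moved to -0.14 and -0.14 with TMM, -0.15 and -0.14 with median-ratio scaling and -0.13 and -0.13 with those totals, its sum to -0.24 without those 6% of cells, and its median to -0.15 with the 4 classes of the immediate early program at the same weights, a weighting chosen after seeing the data like those of the mast cell and globin programs and the limit to cells of at least 3000 UMIs. Genes at least 1.2-fold higher numbered 1584 with a minimum of 20 UMIs and 586 with 500, in place of 956; at 1.5-fold higher 572 and 105 in place of 220, and lower 370 and 73 in place of 134. Genes 1.2-fold lower numbered 1076 with TMM and 1093 with median-ratio scaling in place of 1775, beside 1410 and 1393 higher, and 1.5-fold lower 88 with TMM. The difference in the share of cells moved to -7.00 points for Atf4 at 5000 UMIs and to -4.86 points for Hspa5 without thinning, and the correlation of the branches in the oil-labelled library to 0.10 at 5000 UMIs.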
